A study of Mus musculus with 8 samples.

Results

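The genes described here encode 9 proteins that hepatocytes secrete into plasma, and they were followed in RNA of mononuclear cells sorted from young mouse pups. They are Alb (albumin), Afp (alpha-fetoprotein), Ttr (transthyretin), Apoa1, Apoa2 and Apoh (apolipoproteins A-I, A-II and H), Fgb (the fibrinogen beta chain), Ahsg (fetuin-A) and Trf (transferrin). They were taken by name from the 52784 genes of the deposited table of estimated counts, through GENCODE symbols, and all 9 members were found. What was asked of them was how the fetal gene Afp stood against the adult genes, and how much RNA of liver genes the sorted cells held.

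RNA came from 2 kinds of cells of F1 pups aged 1 week, trafficked maternal cells sorted by H2K-b and recipient (fetal) cells sorted by H2K-d after magnetic enrichment. There were 8 libraries, 1 for each origin and treatment, and each pooled cells from several pups, so a difference between any pair of libraries could not be checked in replicates and was not tested. All dams were CD11c-DTR mice on the B6 background, in which the receptor for diphtheria toxin (DT) is driven by the Itgax (CD11c) promoter, and all sires were BALB/c. In-utero transplantation (IUT) put 5000000 bone marrow mononuclear cells into the fetal liver on embryonic day 14. The donors were B6 CD45.1 mice for mIUT (maternal donor type) and BALB/c mice for pIUT (paternal donor type). Dams of the DC-depleted pIUT group had received DT at 5 ng/g on embryonic day 13, and dams of the mIUT and pIUT groups had received saline (DC control). Uninjected pups had no IUT and came from dams with or without DT, in proportions that the sources used here do not give for these pools. All cells came from whole-body harvests that included the lymphoid organs, and the labels call them mononuclear cells. F1 cells carry both H2K types, so H2K-b by itself is also found on recipient cells. Donor cells carry H2K-b in mIUT and H2K-d in pIUT. The maternal mIUT library and the recipient libraries of both pIUT groups may therefore hold donor cells too, and their share was not tested.

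Total counts were between 38543457 and 47965130 per library, while genes with at least 10 counts ranged from 9125 in the recipient uninjected library to 16231 in recipient DC-depleted pIUT. The 3 leukocyte genes checked (Ptprc, Coro1a and Laptm5) had over 3 counts in all 8 libraries. Their summed level was between 3157 and 8441 CPM in 6 libraries, but 775 CPM in maternal pIUT and 361 CPM in maternal DC-depleted pIUT, in which Ptprc (CD45) had 87 counts. CPM is the count divided by the normalized library size, scaled to 1000000. Itgax had 409, 0, 611 and 1 counts in the maternal uninjected, mIUT, pIUT and DC-depleted pIUT libraries, and 0, 73, 367 and 722 counts in the recipient libraries in the same order. Every list of values over libraries below keeps this order. In bulk RNA, fewer cells of a type and less RNA per cell cannot be told apart.

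Hepatocytes make most plasma proteins, and the fetal liver is at the same time the main site of blood formation, which moves to the bone marrow around birth. Alpha-fetoprotein is the main plasma protein of the fetus and is made by yolk sac endoderm and fetal hepatocytes, after which its gene is shut down as albumin takes its place. Several of these genes are also used outside the liver: Apoa1 in the intestine, Ttr in the choroid plexus, and Trf in oligodendrocytes and other cells. In the embryo, yolk sac endoderm makes many of these proteins too.

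Alb and Afp are neighbours on mouse chromosome 5 (GRCm39 build, Alb at 90608647 to 90624696 and Afp at 90638584 to 90656766, both on the plus strand), with 13.9 kb between them. The promoters of this pair are shown since they lie next to each other and the ratio of Afp to Alb ranged more widely over the libraries than that of any other member to Alb, and that of Apoa1 is shown since Apoa1 led the members in another library. Each sequence is the 250 bases before the RefSeq start, on the gene's own strand (GRCm38.p6, Alb chr5:90460620-90460869, Afp chr5:90490464-90490713 and Apoa1 chr9:46228380-46228629, all plus strand). Capitals mark TATAAA, the letters of the TATA box searched for.
Alb: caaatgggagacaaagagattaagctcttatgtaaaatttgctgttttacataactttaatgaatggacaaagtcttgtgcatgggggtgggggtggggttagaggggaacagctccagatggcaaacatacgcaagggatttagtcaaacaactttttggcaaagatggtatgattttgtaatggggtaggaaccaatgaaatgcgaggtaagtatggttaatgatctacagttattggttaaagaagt
Afp: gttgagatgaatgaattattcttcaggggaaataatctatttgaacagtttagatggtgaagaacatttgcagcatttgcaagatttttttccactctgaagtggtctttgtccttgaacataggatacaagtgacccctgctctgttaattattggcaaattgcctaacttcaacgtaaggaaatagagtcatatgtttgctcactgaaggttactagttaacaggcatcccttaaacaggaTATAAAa
Apoa1: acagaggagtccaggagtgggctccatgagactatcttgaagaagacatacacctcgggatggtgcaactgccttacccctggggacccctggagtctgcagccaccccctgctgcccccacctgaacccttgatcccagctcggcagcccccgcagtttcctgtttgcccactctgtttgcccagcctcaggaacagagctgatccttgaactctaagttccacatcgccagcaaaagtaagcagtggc

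TATAAA ended 2 bases before the start in Afp. Searched on both strands, it was in 2 of the 8 promoters listed for 7 members (Afp and 1 of the Apoa2 promoters) and in 12.4% of all 32851 promoters of this length. The HNF4 site CAAAGTCCA was in 0 of 8 and in 0.384% of all. The Alb and Apoa1 windows held neither run of letters, and sites of other factors were not searched for. A match is a description of the letters and not a binding site.

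Afp, the fetal gene, was the member with the widest range. It had 430, 8016, 923 and 2077 counts in the maternal libraries and 437890, 3, 179 and 6601 counts in the recipient libraries. As a level this was 11.05, 207, 18.2 and 62.9 CPM in maternal cells and 9055, 0.105, 3.96 and 120 CPM in recipient cells. The recipient uninjected library stood alone, with 96.0% of all Afp counts of the 8 libraries and a level 43.7 times that of the next library, maternal mIUT. The lowest value was in the same kind of cells, at 3 counts in recipient mIUT (95% interval of the fold from recipient uninjected 29616 to 419697, counting error only, as for all intervals here).

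Alb, the main plasma protein of the adult, had 762, 2478, 1410 and 727 counts in maternal cells and 953, 14, 0 and 7047 counts in recipient cells. Its level was 19.6, 64.0, 27.9 and 22.0 CPM in maternal cells and 19.7, 0.488, 0 and 129 CPM in recipient cells. Thus the library with the most Afp held no more Alb than maternal uninjected cells (1.01-fold, 95% interval 0.914 to 1.11), and Alb was highest in recipient DC-depleted pIUT, at 2.01 times the next library. The 0 counts in recipient pIUT allow a level of up to 0.0664 CPM, which is that of 3 counts.

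The ratio of Afp to Alb within a library needs no scaling between libraries. Per 100 Alb counts there were 56.4 (95% interval 50.02 to 63.6) Afp counts in maternal uninjected, 324 (309 to 339) in maternal mIUT, 65.5 (60.2 to 71.2) in maternal pIUT and 286 (262 to 311) in maternal DC-depleted pIUT. Among recipient libraries it was 45949 (43119 to 49015) in uninjected, 21.4 (3.95 to 76.8) in mIUT, at least 5967 in pIUT, where Alb was not detected, and 93.7 (90.6 to 96.9) in DC-depleted pIUT. Afp was the lower of the pair in 4 libraries and the higher in the other 4, and in 2 recipient libraries it exceeded Alb by far. The ratio was about the same in maternal uninjected and maternal pIUT, whose intervals overlap, and it also lay at similar values in maternal mIUT and maternal DC-depleted pIUT, whose intervals do so too. Over the 6 libraries with more than 3 counts of both genes the ratio ranged 814-fold. Those of Ttr (52.6-fold), Apoa2 (46.3-fold), Ahsg (18.2-fold), Fgb (16.6-fold) and Apoh (11.3-fold) to Alb ranged less, over 4 to 7 libraries each, while those of Apoa1 (197-fold) and Trf (130-fold) lay between.

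**Figure D1:**
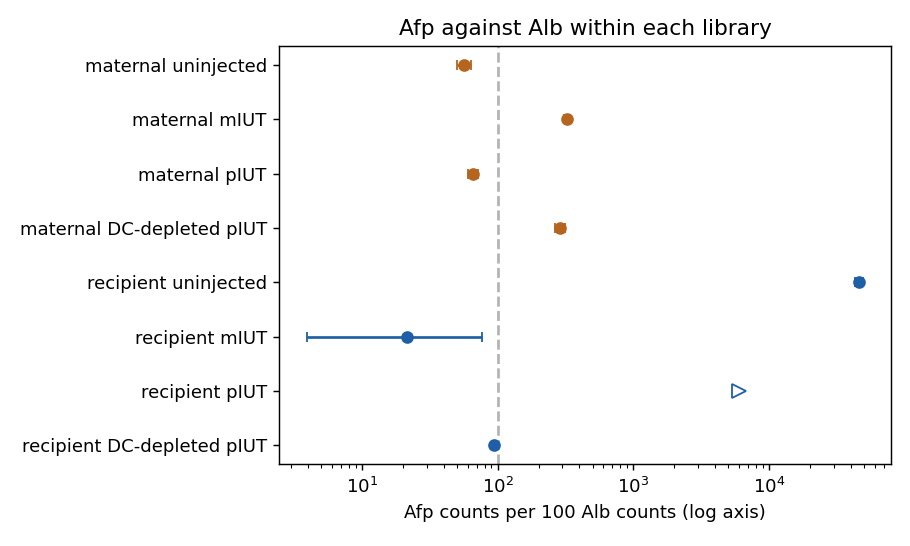
Afp counts per 100 Alb counts in each of the 8 libraries (log axis), with maternal libraries in brown, recipient libraries in blue and 95% counting intervals as bars. The dashed line marks equal counts and the open triangle a lower bound. The recipient uninjected library lies at 45949 and recipient DC-depleted pIUT at 93.7.

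Afp belongs to a set of 10 genes of the fetal liver, of which 6 had over 3 counts in the recipient uninjected library, 10 in each DC-depleted pIUT library and 4 to 9 in the others. H19, an imprinted RNA of fetal tissues, had 1500, 8967, 1603 and 693 counts in maternal cells and 2955, 94, 459 and 2318 counts in recipient cells. Igf2, the fetal growth factor next to H19, had 69, 2053, 482 and 446 counts in maternal and 728, 7, 26 and 629 counts in recipient cells. Neither was highest in the library that was highest in Afp: both were highest in maternal mIUT. Zhx2 and Zbtb20 encode repressors of Afp in the postnatal liver. Zhx2 had 488, 0, 120 and 0 counts in maternal cells and 5, 65, 33 and 79 counts in recipient cells, and Zbtb20 had 97, 8, 6 and 0 and then 0, 180, 54 and 11 counts. The library with the most Afp thus had 5 counts of Zhx2 and 0 of Zbtb20, and maternal DC-depleted pIUT had 0 of both. Whether these levels bear on Afp was not tested.

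Of 6 cholangiocyte genes, 5 had over 3 counts in recipient uninjected beside Afp and Sox9 was at 0, and their summed level was 1255 CPM there and 20.3 to 583 CPM in the other libraries. Krt19 had 14211 counts there and Krt7 had 14302, against at most 1046 counts of either in any other library. Of 8 genes of hepatic stellate cells and mesenchyme, Ecm1, a matrix protein gene, had 38997 counts and the other 7 were at 0. Of 8 genes listed for yolk sac endoderm, a tissue of the embryo that also makes Afp, 4 had over 3 counts in recipient uninjected. The endocytic receptor gene Lrp2 had 1419 counts there and at most 1 in any other library, Amn (amnionless, the partner of cubilin) had 3452, Cubn (cubilin) had 156 and Rbp4 (retinol-binding protein) had 2864. Apob, Sox17, Gata4 and Hnf4a were at 0. Maternal mIUT had 5 of the 8 genes, with Amn at 4515 counts and Gata4, a transcription factor of endoderm, at 2304, and Afp second highest. Which cells of these pups aged 1 week held the RNA of the listed genes, and their part in the Afp level, was not tested.

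Ttr carries thyroxine and retinol-binding protein. It had 35, 5603, 713 and 1755 counts in maternal cells and 2120, 0, 4 and 2306 counts in recipient cells, which was 0.899, 145, 14.1 and 53.2 CPM and then 43.8, 0, 0.0886 and 42.1 CPM. It was highest in maternal mIUT, at 2.72 times the next library, and close to absent from recipient mIUT and recipient pIUT. Of 8 genes listed for the choroid plexus, the other main source of Ttr, 1 to 4 had over 3 counts in each library. Their summed level was also highest in maternal mIUT, at 333 CPM, with Folr1 at 7194, Clic6 at 3380 and Prlr at 2318 counts and the other 5 at 0, and it was 5.27 to 72.5 CPM in the other libraries. The part of such cells in the Ttr level was not tested.

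Trf, which carries iron to cells, was the member with the highest lowest level over the libraries. It had 7662, 7700, 3931 and 4275 counts in maternal cells and 194264, 5084, 3223 and 36076 counts in recipient cells. Its level was 197, 199, 77.7 and 129 CPM in maternal cells and 4017, 177, 71.4 and 658 CPM in recipient cells, and the recipient uninjected library held 74.1% of all its counts. Without that library the level of Trf ranged from 71.4 to 658 CPM, while Alb, Ttr, Apoh and Fgb each had at least 1 of the other libraries at 0. In the libraries poorest in the other members, recipient mIUT and recipient pIUT, Trf made up 87.0% and 92.8% of all member counts. Of 7 oligodendrocyte genes, the brain cells that make transferrin, all 7 had over 3 counts in maternal pIUT and 2 to 6 in the other libraries. Their summed level was 659 CPM in maternal uninjected, 596 CPM in maternal pIUT, 220 CPM in recipient uninjected and 57.4 to 230 CPM in the other libraries, with Cnp and Mbp leading, and their part in the Trf level was not tested. Tfrc, the receptor by which cells take up transferrin, had 3361, 3324, 17206 and 10235 counts in maternal and 5435, 928, 3939 and 4884 counts in recipient cells, and was not highest where Trf was.

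Apoa1 is the main protein of high-density lipoprotein and is made in liver and small intestine. It had 231, 148054, 2201 and 8006 counts in maternal cells and 50265, 681, 42 and 12983 counts in recipient cells. Its level was 5.94, 3824, 43.5 and 242 CPM in maternal cells and 1039, 23.8, 0.930 and 237 CPM in recipient cells. Maternal mIUT held 66.5% of all Apoa1 counts, at 3.68 times the level of recipient uninjected, the next library. In maternal mIUT Apoa1 made up 83.1% of the counts of all members.

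Intestinal genes were high in the same library. Of 12 genes listed for intestinal epithelium 7 had over 3 counts in maternal mIUT, with a summed level of 7801 CPM, against 1.285 to 23.6 CPM in 5 libraries, 58.1 CPM in recipient mIUT and 767 CPM in recipient uninjected, nearly all of it Apoa4. Fabp2, the intestinal fatty acid-binding protein, had 185244 counts in maternal mIUT and at most 575 elsewhere. Alpi (intestinal alkaline phosphatase) had 31088 counts there, Lgals4 31700, Vil1 (villin) 3127 and Cdx2, a transcription factor of the gut, 857. Lct, Cdx1, Muc2, Reg3g and Sis had 1 count or none there. Fabp1, which liver and intestine share, had 121328 counts in it. Per 100 Apoa1 counts there were 125 Fabp2 counts (95% interval 124 to 126) in maternal mIUT, but 0.00796 (0.00217 to 0.0204) in recipient uninjected and 0.870 (0.717 to 1.05) in recipient DC-depleted pIUT. It was 2.20 (1.88 to 2.55) in maternal DC-depleted pIUT, so that the 3 libraries next highest in Apoa1 held little Fabp2. The part of intestinal cells in the Apoa1 level was not tested.

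Apoa2, the second protein of high-density lipoprotein, is made mainly by the liver. It had 125, 1609, 1142 and 5522 counts in maternal cells and 0, 8, 7 and 4416 counts in recipient cells. Its level was 3.21, 41.6, 22.6 and 167 CPM in maternal cells and 0, 0.279, 0.155 and 80.6 CPM in recipient cells. Apoa2 was highest in the DC-depleted pIUT libraries of both origins, not where Apoa1 was. Per 100 Apoa1 counts there were 54.1 Apoa2 counts (95% interval 43.2 to 67.6) in maternal uninjected, 51.9 (48.3 to 55.8) in maternal pIUT and 69.0 (66.6 to 71.4) in maternal DC-depleted pIUT. The same ratio was 1.09 (1.03 to 1.14) in maternal mIUT, 0, or at most 0.00734 by the exact interval, in recipient uninjected, 1.18 (0.505 to 2.33) in recipient mIUT, 16.7 (6.32 to 37.4) in recipient pIUT and 34.0 (32.9 to 35.2) in recipient DC-depleted pIUT. Apoa2 was thus lowest relative to Apoa1 in recipient uninjected and in both mIUT libraries.

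Apoh (beta-2 glycoprotein I), a phospholipid-binding plasma protein made by the liver, had 0, 0, 170 and 967 counts in maternal cells and 0, 19, 0 and 1426 counts in recipient cells. Its level was 3.36 and 29.3 CPM in maternal pIUT and DC-depleted pIUT, 0.663 CPM in recipient mIUT and 26.01 CPM in recipient DC-depleted pIUT. Where it had 0 counts, the level of 3 counts, taken as the limit, was 0.0771 CPM in maternal uninjected, 0.0775 in maternal mIUT, 0.0620 in recipient uninjected and 0.0664 in recipient pIUT. Apoh was thus not detected in the libraries that led in Afp and in Apoa1.

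Fgb is 1 of 3 chains that a hepatocyte joins into fibrinogen, the precursor of the clot. It had 88, 1044, 267 and 307 counts in maternal cells and 1830, 0, 0 and 1687 counts in recipient cells, at 2.26, 27.0, 5.28 and 9.30 CPM and then 37.8, 0, 0 and 30.8 CPM. Fga, the alpha chain, had 0, 1355, 0 and 406 counts in maternal and 134, 21, 0 and 2550 counts in recipient cells, and Fgg, the gamma chain, had 0, 92, 1155 and 1260 and then 0, 0, 0 and 2203 counts. All chains had over 3 counts only in maternal mIUT and in both DC-depleted pIUT libraries. In maternal uninjected, Fgb was found with 0 counts of either partner, and in recipient uninjected it was found with Fga and 0 counts of Fgg.

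Ahsg, which binds calcium phosphate in plasma and is abundant before birth, had 328, 3753, 2171 and 5681 counts in maternal cells and 2216, 32, 20 and 14418 counts in recipient cells. Its level was 8.43, 96.9, 42.9 and 172 CPM in maternal cells and 45.8, 1.12, 0.443 and 263 CPM in recipient cells. It was highest in recipient DC-depleted pIUT, as Alb was, at 1.53 times the next library, maternal DC-depleted pIUT. Apoa1, Ahsg and Trf were the members with over 3 counts in all 8 libraries.

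**Figure D2:**
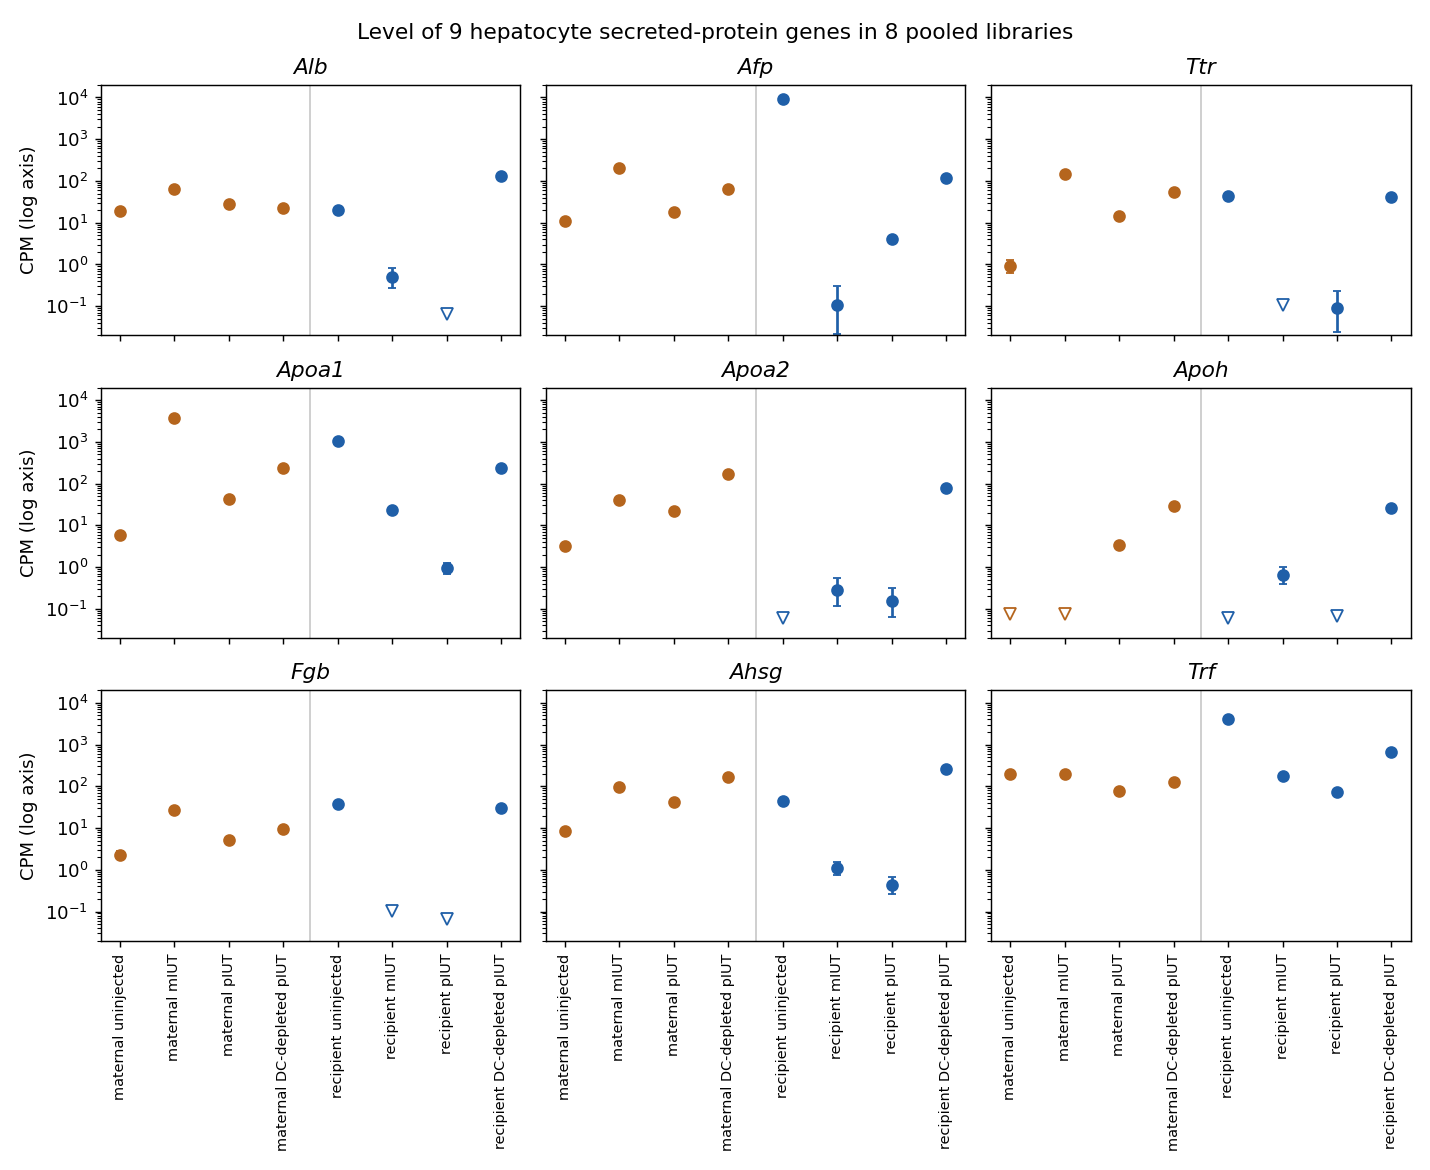
Level of each member in each library, in CPM on a log axis, with maternal libraries in brown and recipient libraries in blue. Bars are 95% counting intervals and open triangles mark the level that 3 counts would give where a gene had 0 counts. In recipient mIUT and recipient pIUT every member but Trf lies at or under 23.8 CPM.

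Added up, the 9 members took 0.0251%, 0.4001%, 0.0328% and 0.0761% of all counts in maternal cells and 1.44%, 0.0140%, 0.00869% and 0.210% in recipient cells. The mixture differed as well as the amount. Set per kilobase of transcript, which allows genes to be compared, recipient uninjected was led by Afp (4364 CPM per kb), then Trf (1562) and Apoa1 (701). Maternal mIUT was led by Apoa1 (2578 CPM per kb), then Ttr (110) and Afp (99.8). Recipient DC-depleted pIUT was led by Trf (256 CPM per kb), Ahsg (189), Apoa1 (160) and Apoa2 (156), with Alb (63.0) and Afp (58.0) close together. Maternal DC-depleted pIUT was led by Apoa2 (323 CPM per kb), then Apoa1 (163) and Ahsg (124). Maternal pIUT was led by Apoa2 (43.6 CPM per kb), then Ahsg (30.8) and Trf (30.2), and Trf led the other 3 libraries, at 27.8 to 76.6 CPM per kb. Albumin led in no library.

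The first set of comparisons asked how each IUT group stood against uninjected pups, within each origin. A gene was called when it differed at least 4-fold and had over 3 counts in at least 1 of the 2 libraries compared. In maternal mIUT, 6 members were higher than in maternal uninjected and 0 were lower, where 18.1% of all tested genes were higher and 38.3% lower. Apoa1 was 644-fold higher (95% interval 566 to 736), Ttr 161-fold (116 to 231), Afp 18.7-fold (17 to 20.7), and Apoa2, Fgb and Ahsg 11.5-fold to 12.9-fold. Alb was 3.27-fold higher, Trf was at 1.01-fold (0.978 to 1.04; below 1 when scaled by library size alone), and Apoh had 0 counts in both. The median log2 fold change of the members was 3.63, against -0.67 over all genes tested, or -0.61 with genes of 0 counts at their bound.

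In maternal pIUT, 5 members were higher and 0 lower than in maternal uninjected, where 24.8% of all genes were higher and 25.0% lower. Ttr was 15.7-fold higher (11.2 to 22.7), Apoa1 7.33-fold, Apoa2 7.03-fold, Ahsg 5.09-fold and Apoh at least 43.6-fold. Alb, Afp and Fgb were 1.42-fold, 1.65-fold and 2.33-fold higher, and Trf was at 0.395-fold. In maternal DC-depleted pIUT, 7 members were higher and 0 lower, where 26.0% of all genes were higher and 26.8% lower. Apoh was at least 380-fold higher, Ttr 59.1-fold (42.3 to 85.1), Apoa2 52.1-fold (43.6 to 62.7), Apoa1 40.8-fold, Ahsg 20.4-fold, Afp 5.69-fold and Fgb 4.11-fold (3.23 to 5.27). Fgb was no longer called, which left 6 members, when scaled by library size alone (log2 fold change 1.80 in place of 2.04), with TMM without the 100 highest genes (1.86) or with a prior count of 5 (1.98). Under these settings 23.92%, 24.39% and 19.88% of all genes were higher. Alb was at 1.12-fold (1.01 to 1.25), and below 1 when scaled by library size alone, and Trf was at 0.658-fold (0.633 to 0.683). The 3 maternal comparisons share the uninjected library, so that what is low there is high in each of them. Median log2 fold changes of the members were 2.35 in pIUT and 4.35 in DC-depleted pIUT, against 0.00 and 0.06 over all genes.

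In recipient cells the direction turned. In recipient mIUT, 7 members were lower than in recipient uninjected and 2 were higher, where 18.1% of all genes were lower and 47.1% higher. Afp was 86551-fold lower (29616 to 419697), Apoa1 43.8-fold (40.6 to 47.3), Ahsg 41.1-fold (29.0 to 60.2), Alb 40.4-fold (23.9 to 74.1) and Trf 22.7-fold, and Ttr and Fgb were at least 419-fold and 362-fold lower. Apoa2 and Apoh were the members at 0 in recipient uninjected, and with 8 and 19 counts they were at least 4.50-fold and 10.7-fold higher.

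In recipient pIUT, 7 members were lower and 1 was higher, where 13.3% of all genes were lower and 48.2% higher. Afp was 2285-fold lower (1973 to 2660), Apoa1 1118-fold, Ttr 495-fold (193 to 1818), Ahsg 104-fold and Trf 56.3-fold, with Fgb at least 570-fold and Alb at least 297-fold lower. The gene called higher was Apoa2, with 7 counts against 0, of which the counts allow only a bound of at least 2.50-fold, and Apoh had 0 counts in both. Median log2 fold changes of the members at their bounds were -5.36 in mIUT and -8.58 in pIUT, against 1.28 and 1.17 over all genes.

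In recipient DC-depleted pIUT, 4 members were higher than in recipient uninjected and 3 were lower, where 52.1% of all genes were higher and 10.8% lower. Apoa2 was at least 1299-fold and Apoh at least 419-fold higher, Alb was 6.52-fold (6.10 to 6.99) and Ahsg 5.74-fold (5.49 to 6.01) higher. Afp was 75.2-fold (73.4 to 77.1), Trf 6.10-fold and Apoa1 4.39-fold lower. Scaled by library size alone Apoa1 was no longer called (log2 fold change -1.74 in place of -2.13), which left 2 members lower, beside 8.735% of all genes. Ttr was at 0.960-fold (0.904 to 1.02) and Fgb at 0.813-fold (0.761 to 0.869), both above 1 when scaled by library size alone. The median log2 fold change of the members was -0.06, against 2.94 over all genes tested, or 1.25 where genes at 0 were set to their bound. The log2 fold change of Alb (2.71) thus lay between these medians of all genes, and that of Afp (-6.23) far below them. These 3 comparisons share the recipient uninjected library, which was extreme in Afp and Trf.

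**Figure D3:**
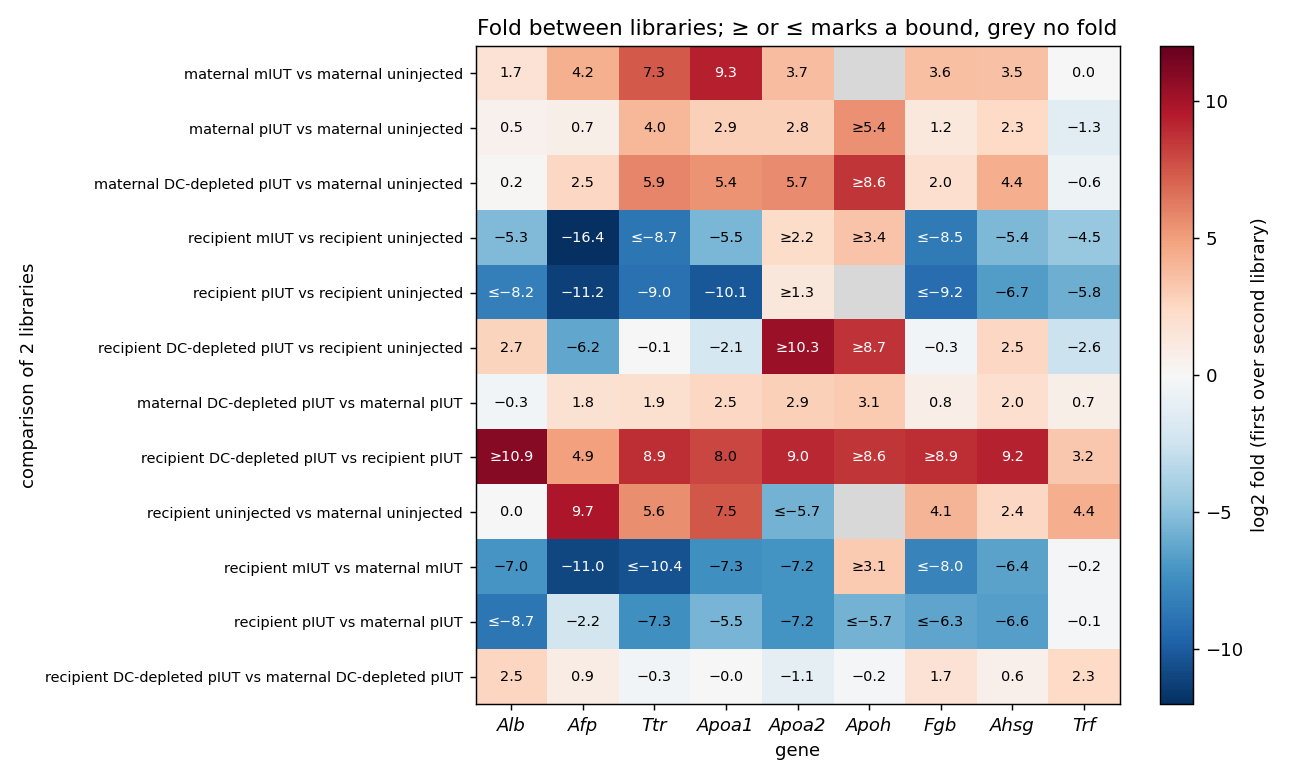
Log2 fold of each member (columns) in each of 12 comparisons of 2 libraries (rows), with red for higher and blue for lower in the first library. A sign ≥ or ≤ marks a bound where a library had 0 counts, and grey marks Apoh at 0 in both. Recipient DC-depleted pIUT against recipient pIUT is red in all 9 columns.

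The comparison of DC-depleted with DC control pIUT asked what went with DT given to the dam. In recipient cells all 9 members were higher and 0 lower in DC-depleted pIUT, where 18.7% of all genes were higher and 8.68% lower. Alb was at least 1935-fold higher, Ahsg 594-fold (384 to 973), Apoa2 520-fold (252 to 1294), Ttr 475-fold (185 to 1745), Apoa1 255-fold (188 to 354), Afp 30.4-fold (26.2 to 35.4) and Trf 9.22-fold (8.90 to 9.56). Fgb and Apoh were at least 463-fold and 392-fold higher. The median log2 fold change of the members at their bounds was 8.86, against 0.12 over all genes. Afp and Trf moved least, and these were the members with the most counts in recipient pIUT.

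In maternal cells DC-depleted pIUT had 4 members higher and 0 lower than DC control, where 27.5% of all genes were higher and 28.3% lower. Apoh was 8.71-fold (7.40 to 10.3), Apoa2 7.41-fold (6.95 to 7.90), Apoa1 5.57-fold (5.32 to 5.84) and Ahsg 4.01-fold (3.81 to 4.21) higher. Ttr and Afp were 3.77-fold and 3.45-fold higher, Fgb 1.76-fold and Trf 1.67-fold, and Alb was at 0.790-fold (0.721 to 0.864). Ahsg lay just past the 4-fold limit, and it was no longer called with DESeq2 size factors (log2 fold change 1.85 in place of 2.003) or with TMM without the 100 highest genes (1.63). Scaled by library size alone 2 members were called instead of 4, without Ahsg and Apoa1 (1.42 and 1.90), where 22.96% of all genes were higher. Whether the difference between origins in these values exceeds that between pools was not tested.

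The last comparisons set recipient cells against maternal cells of the same pups. Among uninjected pups, 6 members were higher in recipient cells and 1 was lower, where 15.8% of all genes were higher and 41.9% lower. Afp was 819-fold higher (746 to 903), Apoa1 175-fold, Ttr 48.7-fold, Trf 20.4-fold, Fgb 16.7-fold and Ahsg 5.44-fold, while Apoa2 was at least 51.8-fold lower and Alb was equal within counting error. In mIUT, 7 members were lower in recipient cells and 1 was higher, where 13.7% of all genes were lower and 38.7% higher. Alb was 131-fold and Apoa1 161-fold lower there, Trf was at 0.892-fold, and Apoh was at least 8.55-fold higher.

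In pIUT, 8 members were lower in recipient cells and 0 higher, where 18.9% of all genes were lower and 28.5% higher. Alb was at least 420-fold lower, Ttr 159-fold, Apoa2 146-fold and Afp 4.60-fold, and Trf was at 0.918-fold. In DC-depleted pIUT, 2 members were higher in recipient cells and 0 lower, where 34.8% of all genes were higher and 10.8% lower. These were Alb, at 5.84-fold (5.41 to 6.31), and Trf, at 5.08-fold (4.92 to 5.25). The other 7 members lay between 0.482-fold (Apoa2) and 3.31-fold (Fgb), and Ttr (0.792-fold), Apoh (0.888-fold) and Apoa1 (0.977-fold) were above 1 when scaled by library size alone. That scaling also called Fgb higher (log2 fold change 2.35 in place of 1.73). Members that lay within 4-fold of each other between the origins thus numbered 7 in the DC-depleted group and 1 in each of the other 3 groups.

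Over the 4 treatments together, recipient and maternal cells were compared in a single fit with the treatment as a block (edgeR's quasi-likelihood test, Benjamini-Hochberg adjustment over 13353 genes, 3 residual degrees of freedom), in which differences between the treatments in the effect of origin count as error. No member passed, with an adjusted p of 1 for each, beside 0% of all genes (0 of 13353). At an unadjusted p under 0.05 it was 1 member and 273 genes. The member was Apoa2, which was higher in maternal cells in each of the 4 treatments.

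Other genes of hepatocytes, listed by name, were counted in each library and their levels summed. Of 33 further genes of secreted proteins, 14, 16, 17 and 30 had over 3 counts in the maternal libraries and 14, 17, 9 and 32 in the recipient libraries. Of 24 genes of proteins that stay inside hepatocytes, such as enzymes of urea and amino acid metabolism, it was 10, 14, 12 and 21 in maternal and 11, 12, 11 and 23 in recipient cells. Both DC-depleted pIUT libraries therefore held most of either list, and the other 6 libraries at most 17 of 33 and 14 of 24. The summed levels gave another order. Secreted-protein genes summed to 9473 CPM in recipient mIUT, 4763 in maternal mIUT and 1323 in recipient uninjected, against 561 and 1054 CPM in the maternal and recipient DC-depleted pIUT libraries. Intracellular genes summed to 5202 CPM in maternal mIUT and 988 in recipient uninjected, against 455 and 442 CPM in the DC-depleted pIUT libraries. Hpx (hemopexin) had 1165 and 1414 counts in the maternal and recipient DC-depleted pIUT libraries, and Cyp3a11 (a drug-oxidising cytochrome) had 1045 and 1101. Hpx had at most 70 counts in the other libraries, and Cyp3a11 had 0 in each. Hp (haptoglobin), C3 (complement) and Apoc3 had the highest mean levels of the first list, and Fabp1 and Ass1 were among the highest of the second. Hp made up 8947 of the 9473 CPM in recipient mIUT (256572 counts) and 3637 of the 4763 CPM in maternal mIUT. It made up 555 CPM in recipient uninjected, and 104 and 349 CPM in the maternal and recipient DC-depleted pIUT libraries. The first place of recipient mIUT in the secreted-protein sums thus rested on Hp. Granulocytes make Hp too, and granulocyte and monocyte genes summed to 223355 CPM in recipient mIUT and 129721 CPM in maternal mIUT.

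In recipient DC-depleted against DC control pIUT, 29 of the 32 secreted-protein genes tested were higher and 1 was lower, and 21 of the 23 intracellular genes were higher and 0 lower (18.7% and 8.68% of all genes). Their median log2 fold changes with genes at their bounds were 6.499 and 4.89. In maternal cells of the same comparison 17 of 30 and 11 of 21 were higher, and 2 and 1 were lower (27.5% and 28.3% of all genes), with medians of 2.02 and 2.26. In recipient DC control pIUT against uninjected 12 of 16 secreted-protein genes and 10 of 16 intracellular genes were lower (13.3% of all genes), and 2 and 5 were higher (48.2% of all genes). In recipient DC-depleted pIUT against uninjected 20 of 32 and 13 of 23 were higher and 3 and 4 lower, beside 4 members higher and 3 lower, and 52.1% of all genes higher and 10.8% lower, so that the counts of higher genes lay near the share of all genes. In recipient mIUT against uninjected 9 of 22 and 6 of 17 were higher and 11 and 9 lower, beside 2 members higher and 7 lower, and 47.1% of all genes higher and 18.1% lower. Of 14 liver-enriched transcription factors, 11 had over 3 counts in recipient DC-depleted pIUT and 4 to 7 in the other libraries. Creb3l3 (which liver and intestine share), Nr1i3 and Cebpa led them, and Creb3l3 had 15545 counts in maternal mIUT and at most 292 in any other.

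Recipient uninjected, which led in Afp, had 14 of 33 secreted-protein and 11 of 24 intracellular genes over 3 counts. The libraries without DC depletion had 9 to 17 and 10 to 14. In recipient uninjected Hpx, Apob, Serpinc1 (antithrombin), Apoc3 and Vtn (vitronectin) were at 0 beside Apoa2 and Apoh. Kng1 (kininogen) had 15297 counts there, Ttc36 had 5307 and F2 (prothrombin) had 3374. Hpx, Apob, Serpinc1, Apoc3 and Apoh were at 0 in maternal uninjected too. Recipient uninjected had the fewest detected genes of the 8 libraries.

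Markers of the liver's other cells did not follow the members in every library. Of 10 genes of Kupffer cells and splenic macrophages, 9 and 10 had over 3 counts in the maternal and recipient DC-depleted pIUT libraries, against 2 to 8 in the other libraries. Clec4f, which marks Kupffer cells, had 0, 0, 326 and 675 counts in maternal cells and 0, 28, 98 and 6211 counts in recipient cells. Clec4f, Marco, Spic and C6 each peaked in recipient DC-depleted pIUT and had 0 counts in recipient uninjected. Slc40a1 stood at 373 CPM in the former and 50.5 CPM in the latter. Cd5l (251 against 101 CPM), Vsig4 (165 against 28.3) and Timd4 (112 against 15.0) had instead more in recipient uninjected. So did Folr2 (19.3 against 6.64) and Hmox1 (215 against 74.6). Between these 2 libraries, 5 of the 10 passed the 4-fold limit upward with DC depletion and 2 downward (52.1% and 10.8% of all genes). The summed level of this list was 157, 823, 137 and 485 CPM in maternal cells and 813, 962, 179 and 767 CPM in recipient cells. Slc40a1, an iron exporter that other cells use too, made up 22.2, 605, 48.3 and 373 CPM of this sum in maternal cells. In recipient cells it made up 50.5, 889, 155 and 373 CPM. Apart from Slc40a1 and Hmox1 the other 8 genes were at 0 in maternal mIUT. Of 7 genes of the liver's sinusoidal endothelium 7 had over 3 counts in maternal pIUT, 6 in recipient DC-depleted pIUT and 1 to 4 in the others, and their summed level, led by Fcgr2b, Lyve1 and Kdr, was 6.36 to 164 CPM. Stellate cell and mesenchyme genes (8 listed) had 7 in recipient DC-depleted pIUT, 6 in each maternal pIUT library and 1 to 4 elsewhere, and cholangiocyte genes (6 listed) had 2 to 6. Ecm1, Col3a1 and Reln led the former list, which summed to 14.5 to 806 CPM, and Spp1, Krt7 and Krt19 led the latter. Exocrine pancreas genes (7 listed), led by Cela1, Cpa1 and Prss2, had 1 to 3 and summed to 0.0827 to 138 CPM. The part of liver cells or of free liver RNA in the members' levels was not tested.

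**Figure D4:**
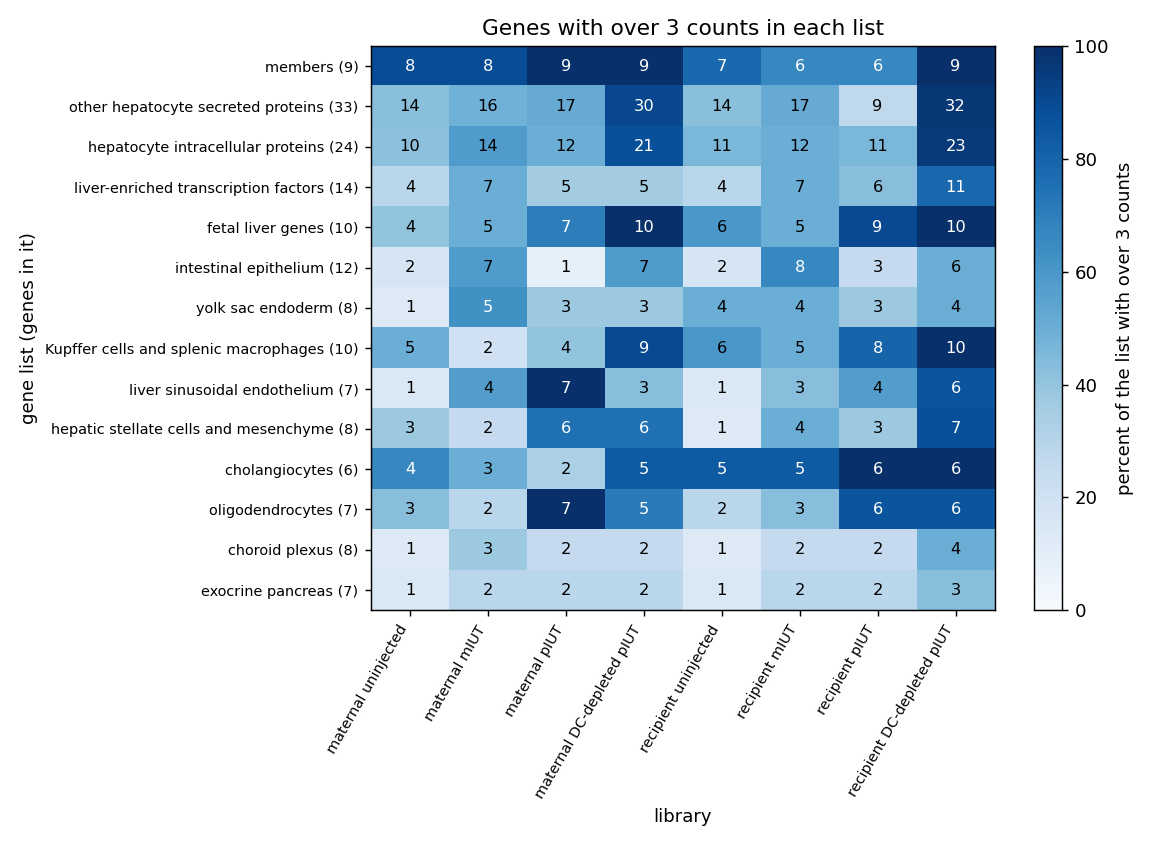
Number of genes with over 3 counts in each library (columns) for the members and 13 gene lists (rows, list size in brackets), shaded by percent of the list. The DC-depleted pIUT libraries hold 30 and 32 of 33 further secreted-protein genes, and the other libraries 9 to 17.

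Red cell genes, which also come with the fetal liver, did not order the libraries as the members did. Of 9 erythroid genes matched, 9 had over 3 counts in 6 libraries and 7 in both mIUT libraries. Their summed level, led by the globin genes Hbb-bs, Hba-a1 and Hba-a2, was 91683, 20986, 130614 and 181068 CPM in maternal cells and 124568, 211, 40422 and 26144 CPM in recipient cells. It was thus lowest in recipient mIUT, which was also poor in the members, but maternal pIUT and maternal uninjected were rich in it with few member counts. In maternal mIUT 8 of the 9 were lower than in maternal uninjected, where 38.3% of all genes were lower.

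Genes of granulocytes and monocytes (10 listed), led by S100a9, S100a8 and Lyz2, had 8 over 3 counts in maternal pIUT and 10 in the other libraries. Their summed level was 16570, 129721, 1944 and 11847 CPM in maternal cells and 38531, 223355, 43879 and 23951 CPM in recipient cells. Against maternal uninjected 7 were higher and 0 lower in maternal mIUT, where 6 members were higher, 0 were higher and 4 lower in pIUT, and 4 were higher and 4 lower in DC-depleted pIUT. Lymphocyte genes (10 listed, led by Cd79a, Lck and Cd79b) had 8 to 10 over 3 counts in each library. Their summed level was 7930, 551, 146 and 285 CPM in maternal cells and 1620, 289, 3165 and 984 CPM in recipient cells. In maternal mIUT, pIUT and DC-depleted pIUT 8, 10 and 8 of the 10 were lower than in maternal uninjected and 0 higher. In these comparisons 38.3%, 25.0% and 26.8% of all genes were lower, and 5 to 7 members were higher. The part of these blood cells in the differences of the members was not tested. Genes of iron uptake and storage (8 listed, led by Ftl1, Fth1 and Tfrc) had 3 in maternal mIUT and 7 or 8 in the others, and summed to 4078 to 16250 CPM.

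Among the members, the profiles over the 8 libraries were most alike for Ttr and Fgb (Pearson correlation 0.93 of log2(CPM + 1)), Ttr and Ahsg (0.92), Alb and Ahsg (0.92) and Ttr and Apoa1 (0.92). They were least alike for Apoa2 and Trf (-0.21), Apoh and Trf (-0.06) and Afp and Apoh (0.04), and Alb and Afp stood at 0.61. These are descriptions over 8 libraries of unlike depth and content and carry no test. Of 10361 other genes with a mean of at least 5 CPM, the 10 most like the mean of the members were Serpina1e (0.98), Rbp4 (0.95), Igf2 (0.92), Fhl1 (0.90), Serpina1b (0.90), Apoc1, Ambp, Tut1, Dpp7 and Tifa (0.87 to 0.88). Rbp4, Serpina1b, Apoc1 and Ambp encode plasma proteins of the liver and Serpina1e is a copy of Serpina1b, so counts of that pair are uncertain where reads fit both. Serpina1e had 83, 555, 425 and 449 counts in maternal cells and 1087, 0, 0 and 830 counts in recipient cells. Rbp4, whose product travels bound to transthyretin, had 0, 927, 584 and 3255 counts in maternal cells and 2864, 7, 0 and 3609 counts in recipient cells.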

How the data were processed

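RNA of 8 pooled libraries was analysed, 1 per group. The authors deposited a single table of estimated counts per gene, not normalized. The submitters' processing notes name bcl2fastq, StringTie and GRCm39, and the study's methods name the nf-core RNA-seq pipeline, GENCODE annotation and featureCounts, while the values are fractional, as salmon writes them. Reads shared by near-identical genes are divided by estimation in such counts. No column was left out (0 of 8). MiXCR clonotype tables, which list reads per receptor clonotype, were not used here.

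Values were rounded to integers. Of 52784 genes, 25066 had a count in at least 1 library, and 97.99% of identifiers matched a symbol in a GENCODE annotation of GRCm39. Normalization factors (TMM, 0.689 to 1.32) came from edgeR 4.0.16 in R 4.3.3. CPM is the count divided by the library total times its factor, scaled to 1000000. Fitted log2 fold changes are those of edgeR's exactTest, with the dispersion set at 0.4 as in the study's methods and a prior count of 0.125, without p values. A gene was called at a 4-fold difference with over 3 counts in 1 of the libraries, on this fitted scale. Against 0 counts a fold is a bound that sets 3 counts in that library in place of 0, and the limit of a level at 0 is that of 3 counts. The printed folds are ratios of CPM with exact 95% binomial intervals, and levels have exact Poisson intervals. Reads carry no molecular identifiers, so these intervals and floors cover counting error only. At 400 counts or more the interval reached at most 9.57% to either side. Recipient and maternal cells were also compared over the 4 treatments by edgeR's quasi-likelihood test (filterByExpr, the treatment as a block), added after seeing the data. The calculations were tested on simulated data. Promoter sequences were taken from RefSeq (GRCm38.p6) and were listed for 7 of the 9 members.

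All 9 members are named. Of 18 other gene lists, the detected genes are counted and, of most, the genes of highest mean level named, with 194 of 195 listed genes matched, and the 10 genes most like the members are named. Other genes of the lists were named after their values were seen, and some are not reported here. The members and lists were chosen with earlier results of these data known. Alternatives were scaling by library size, DESeq2 1.42.0 size factors, TMM without the 100 highest genes, prior counts of 2 and 5, a filter of 10 counts, a 2-fold limit, unrounded counts and a pseudocount of 0.1 CPM. Python 3.11.15, numpy 2.4.6, pandas 2.3.3 and matplotlib 3.10.9 were used.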

Additional observations from a re-analysis of the deposited data

Results flagged for a closer look

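Some members moved one way in maternal cells and the other way in recipient cells of the same treatment, both at least 4-fold from uninjected cells of the same origin. The difference was not tested, since each group has 1 library. In mIUT the members were Afp (log2 fold change 4.23 in maternal and -16.40 in recipient cells, a difference of 20.63), Ttr (a difference of at least 16.04), Apoa1 (9.33 and -5.45, 14.78), Fgb (at least 12.07) and Ahsg (3.52 and -5.36, 8.88). In pIUT they were Ttr (3.97 and -8.95, 12.92), Apoa1 (2.87 and -10.13, 13) and Ahsg (2.35 and -6.69, 9.04), and in DC-depleted pIUT they were Afp (2.51 and -6.23, 8.74) and Apoa1 (5.35 and -2.13, 7.49). Scaled by library size alone, the last recipient value of Apoa1 was -1.74 and no longer 4-fold. Of all genes tested, 20.6% moved in opposite ways under mIUT, 15.8% under pIUT and 15.3% under DC-depleted pIUT. The recipient uninjected library, the highest of the recipient libraries in Afp, Apoa1 and Trf, stands behind each recipient value, and the maternal uninjected library, the lowest of the maternal libraries in Afp, Ttr, Apoa1, Fgb and Ahsg, behind each maternal value.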

How the results depend on the processing

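With the treatment as a replicate block that pairs the origins, a fit chosen after seeing the data, 0 members and 0 genes passed between recipient and maternal cells, and 0 and 0 without the block (121 genes at an unadjusted p under 0.05 by edgeR). Of 168 counts of members called under the alternatives, 163 kept within 1.5 times the main count. Of 72 levels scaled by library size alone 40 moved beyond their counting interval, as did 117 of 504 log2 fold changes under the alternatives. With a 2-fold limit 1 member in place of 0 was lower in maternal pIUT than in maternal uninjected, and 1 in place of 0 was lower in recipient than in maternal cells of DC-depleted pIUT. At that limit 34.32% and 22.55% of all genes were lower in these comparisons. With a prior count of 5, 1 member in place of 2 was higher in recipient mIUT and 0 in place of 1 in recipient pIUT, both against recipient uninjected, where the genes concerned had 7 or 8 counts against 0. At that prior count 39.31% and 39.54% of all genes were higher in these comparisons. Scaled by library size alone, 2 members in place of 4 were higher in DC-depleted pIUT than in pIUT of maternal cells, beside 22.96% of all genes. In that comparison the median of all genes moved from 0.08 to -0.51 on the log2 scale. In recipient against maternal DC-depleted pIUT that median moved from 0.72 to 1.34. No called member changed direction. Afp counts per 100 Alb counts were the same with unrounded counts in the 7 libraries that had a ratio. Of the 10 genes most like the members, 6 remained with a pseudocount of 0.1 CPM. The depth limits what can be said of members under 3 counts, and with pooled libraries a difference between conditions cannot be told apart from one between pools.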

Other observations

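Low counts of Apoa1 in recipient mIUT lay beside low counts of intestinal genes that were high in maternal mIUT. Apoa1 had 681 counts in recipient mIUT, which is 0.460% of its 148054 counts in maternal mIUT, Fabp2 had 0.310% (575 counts), Fabp1 0.307% (373), Alpi 0.518% (161), Lgals4 0.927% (294), Creb3l3 1.88% (292) and Vil1 2.17% (68). Of the other members, Alb, Apoa2 and Ahsg had 0.565%, 0.497% and 0.853% of their maternal mIUT counts in recipient mIUT, but Ttr and Fgb had 0 counts (of 5603 and 1044), Afp had 0.0374% and Trf 66.03%. Per 100 Fabp1 counts there were 153 Fabp2 counts (95% interval 152 to 154) in maternal mIUT, 154 (135 to 176) in recipient mIUT and 163 (89.3 to 306) in recipient pIUT, but 3.20 (2.74 to 3.72) and 3.09 (2.54 to 3.73) in the maternal and recipient DC-depleted pIUT libraries and 0.559 (0.152 to 1.44) in recipient uninjected. Per 100 Apoa1 counts there were 125 Fabp2 counts (124 to 126) in maternal mIUT, 84.4 (75.4 to 94.5) in recipient mIUT and 73.8 (44.9 to 120) in recipient pIUT. The intervals of maternal and recipient mIUT overlap for Fabp2 per Fabp1 and not for Fabp2 per Apoa1. In recipient pIUT Creb3l3 had 0.315% of its maternal mIUT counts, Apoa1 0.0284% and Fabp1 0.0157%, and Alpi was at 0. Whether libraries share reads was not tested.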
